A study of Equus caballus with 4 samples.

Results

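Transcripts of the ISG15 system, a set of 6 genes (*isg15*, *uba7*, *ube2l6*, *herc5*, *herc6* and *usp18*), were followed in differentiating equine satellite cells exposed to gamma-oryzanol (GO). They were found by gene symbol, ignoring case, among the noncontrol probes of the array, and were represented by 9 of 43603 probes, or 6 of 14591 gene symbols. The set was picked with the GO over control ratios of these arrays already known. Its ratios are therefore given as a description, without a test.

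GO is a mixture of ferulic acid esters from rice bran oil, and satellite cells are the muscle stem cells that fuse into new fibers. Cells from *m. semitendinosus* received either 125 nM GO in DMSO (0.04 μl/ml) or the same amount of DMSO alone for 24 h, and both groups were on day 3 of differentiation. RNA of GO-treated cells (Cy5) and of control cells (Cy3) was hybridized together on each of 4 two-color arrays of 1 slide, called biological replicates by the labels. The methods describe isolates from several healthy colts but also the choice of the best scoring cell line, so the spread between arrays may be that between horses or between cultures of 1 horse. The dye was the same on every array, so a dye effect and an effect of GO cannot be told apart.

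ISG15 is a small protein built like a pair of linked ubiquitins, whose gene is among those most strongly induced by type I interferon. UBA7 activates it, UBE2L6 carries it, and a HERC ligase, HERC5 in human and HERC6 in mouse, joins it to newly made proteins, from which USP18 removes it again. USP18 also sits on the interferon receptor subunit IFNAR2 and damps its signal, and all of these enzymes are interferon-induced themselves.

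The probes are 60-base oligonucleotides, and 5 of them are shown because the results turn on them and because each has an open reading frame. Positions are those of the array files, on the EquCab1 build. The *isg15* probe (transcript position 400, chrUn:254070794-254070853, minus strand) ends close to the end of the coding sequence, and the capitals mark the codons, read in an open frame, of the tail through which ISG15 is joined to its targets. The probe of *herc5* called probe 1 (transcript position 2772, chr3:49937637-49937696, plus strand) lies in the HECT ligase domain, and the capitals mark the codon of the cysteine in the motif that carries the modifier. The *ube2l6* probe (transcript position 315, chrUn:243360325-243362333, minus strand) covers 2009 genomic bases with 60 bases and so bridges an intron. The *usp18* probes 1 (transcript position 859, chr6:27336266-27336841) and 2 (position 903, chr6:27334502-27336281), both on the minus strand, also bridge introns, and the capitals mark the 16 bases that they share.
isg15 probe: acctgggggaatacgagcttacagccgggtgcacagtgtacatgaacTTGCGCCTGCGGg
ube2l6 probe: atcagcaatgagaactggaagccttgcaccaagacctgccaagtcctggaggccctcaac
herc5 probe 1: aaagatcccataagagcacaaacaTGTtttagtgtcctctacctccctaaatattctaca
usp18 probe 1: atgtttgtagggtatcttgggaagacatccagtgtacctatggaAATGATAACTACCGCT
usp18 probe 2: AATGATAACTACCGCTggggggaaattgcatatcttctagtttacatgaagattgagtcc

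The remaining probes are those of *uba7* (transcript position 2413, chr16:37389894-37390232, bridging an intron), of *herc6* (position 3046, chr3:49888171-49888230) and *herc5* probes 2 and 3 (positions 991 and 961 of the transcript) that overlap by 30 bases. The ligase genes are neighbors, since the *herc6* probe lies 49.4 kb from *herc5* probe 1 on chromosome 3. GC content was 60.0% for the *isg15* probe and between 35.0 and 55.0% for the other member probes. Of the 9 probes, 7 passed the background filter, all 7 through the control signals of all 4 arrays, and entered the fit over all probes. In 6 of these 7 the GO signals were well above background on all 4 arrays too, and *uba7* passed through its control signals alone. *Herc5* probes 2 and 3 did not pass.

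Every member was lower in GO-treated than in control cells, by 1.82-fold for *uba7* at the least and by 7.94-fold for *usp18* probe 2 at the most. All 7 probes that passed the filter were lower on all 4 arrays, as were 21.5% of the 26832 probes tested. By limma with Benjamini-Hochberg adjustment, with limits of 0.05 on the adjusted p and 1.3 on the fold change, 8.94% of all probes were called, 5.61% as lower and 3.33% as higher. Of the member probes 6 of 7 were called, all as lower, which the choice of the set had in effect fixed. After normexp background correction, the split of 1505 lower and 894 higher over all probes became 816 and 481 with loess but 21 and 347 with median centring in its place. The ratios come from whole cultures, in which fewer cells of a type and less RNA per cell cannot be told apart.

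*Isg15*, the modifier itself, gave control signals of 37392, 14305, 81099 and 9176 (processed signal, arbitrary units) on arrays 1 to 4 and GO signals of 8673, 3991, 13909 and 3214. Its log2 ratios were -2.11, -1.84, -2.54 and -1.51, with a mean of -2.0 ± 0.44 (SD, n = 4), or 4.00-fold lower. On each array the GO signal was the lower one, but the groups overlapped, because the GO signal of array 3 was above the control signal of array 4. Control signals spanned 8.84-fold and GO signals 4.33-fold, whereas the 75th percentile of all signals lay between 683 and 803 on every array and in both channels.

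*Uba7*, the E1 enzyme of the pathway, had log2 ratios of -0.66, -0.24, -1.86 and -0.68, with a mean of -0.86 ± 0.69 (SD, n = 4). Its control signals of 46.5, 27.3, 57.01 and 19.3 and GO signals of 29.4, 23.1, 15.7 and 12.03 overlapped. It exceeded background clearly among GO signals on 2 arrays only (1 and 2), and was the 1 member gene not called.

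*Ube2l6*, the E2 enzyme, had control signals of 199, 137, 269 and 87.8 and GO signals of 73.3, 69.8, 63.6 and 59.6, without overlap. Its log2 ratios were -1.44, -0.97, -2.08 and -0.56, with a mean of -1.26 ± 0.65 (SD, n = 4). Control signals spanned 3.06-fold and GO signals only 1.23-fold, so the arrays differed in the control channel and were nearly level in the GO channel.

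The ligases differed in depth but not in direction. For *herc6* control signals were 1690, 354, 5225 and 386, and GO signals were 177, 109, 306 and 167, without overlap. Its log2 ratios of -3.26, -1.70, -4.10 and -1.20 had a mean of -2.56 ± 1.34 (SD, n = 4), the widest spread among the member probes tested. The control signals of *herc6* spanned 14.8-fold, more than those of any other member probe tested.

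For *herc5* probe 1 control signals were 244, 116, 488 and 96.3, and GO signals were 62.3, 61.6, 92.4 and 63.0, again without overlap. Its log2 ratios were -1.97, -0.92, -2.40 and -0.61, with a mean of -1.47 ± 0.85 (SD, n = 4). *Herc5* probes 2 and 3 rose clearly above background on arrays 1 and 3 only, and there only with control RNA. Control signals were 60.1, 11.1, 84.2 and 11.1 for probe 2 and 35.5, 6.07, 65.6 and 4.10 for probe 3, so both were higher on arrays 1 and 3. Their log2 ratios were -2.53, -1.21, -3.29 and 0.23 for probe 2 and -3.33, -0.87, -1.93 and 0 for probe 3. On arrays 1, 2 and 4 the GO signal of probe 3 was a surrogate, a value that Feature Extraction puts in place of a signal too near background. With control signals near background on arrays 2 and 4, neither probe allowed a fold change over the 4 arrays.

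*Usp18*, the deconjugating protease and receptor inhibitor, had the most negative mean of the set in the deposited ratios, on each of its 2 probes, though not after normexp correction. Probe 1 gave control signals of 694, 204, 1181 and 137 against GO signals of 66.5, 42.7, 80.2 and 35.1. Its log2 ratios were -3.38, -2.25, -3.88 and -1.97, with a mean of -2.87 ± 0.91 (SD, n = 4). For both probes every GO signal lay below every control signal.

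Probe 2 of *usp18* gave control signals of 679, 194, 1097 and 126 against GO signals of 60.6, 36.3, 63.1 and 32.8. Its log2 ratios were -3.48, -2.41, -4.12 and -1.94, with a mean of -2.99 ± 0.99 (SD, n = 4). The probes differed by 0.12 ± 0.11 (SD, n = 4) in log2 ratio, less than the spread of either between arrays. They share 16 bases and the same RNA, and are 2 readings of 1 transcript rather than independent evidence.

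**Figure D1:**
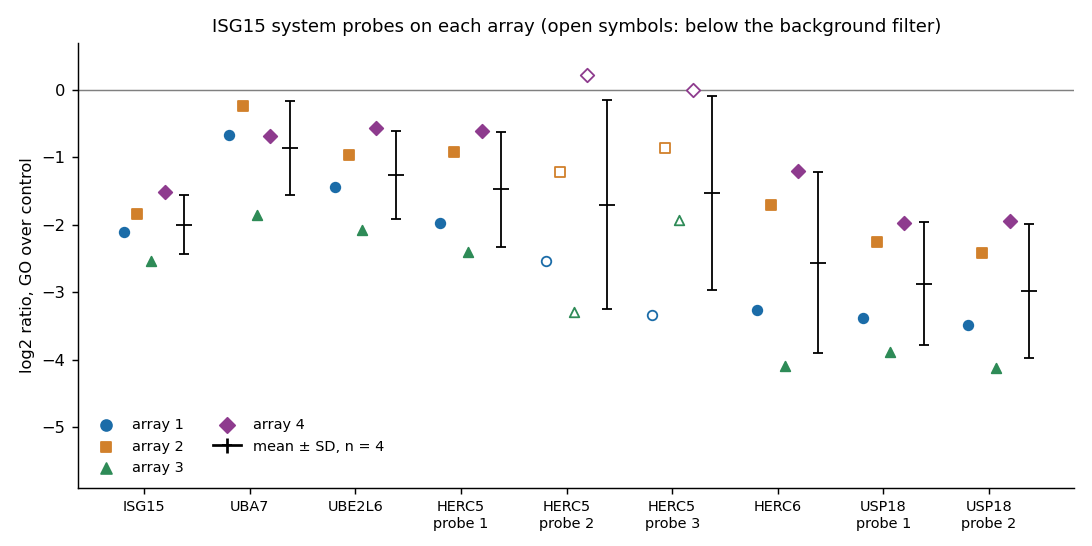
Log2 ratio of GO over control (vertical axis) for the 9 member probes on each of 4 arrays, with mean ± SD (n = 4). Colored symbols are arrays, and open symbols are the *herc5* probes below the background filter. The other 7 probes lie below 0 on every array, from -0.24 for *uba7* on array 2 to -4.12 for *usp18* probe 2 on array 3.

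**Figure D2:**
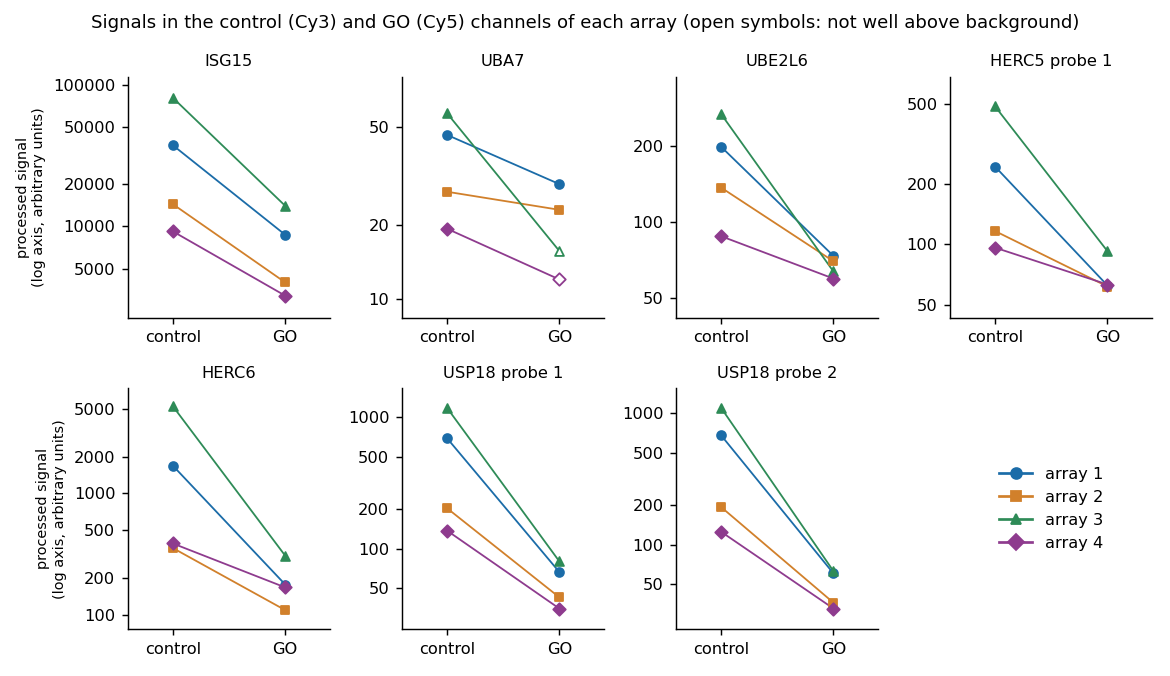
Processed signal (log axis, arbitrary units) of the 7 member probes tested in the control and GO channels, with a line joining the channels of 1 array and open symbols for spots not well above background. Control signals spread widely, with array 3 highest in each panel, and the GO signals of *ube2l6* and *herc5* probe 1 lie close together.

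In 5 of the 7 member probes tested the 4 GO signals all lay below the 4 control signals, the exceptions being *isg15* and *uba7*. Over all probes tested 5.39% showed such a gap in that direction. Ordered by mean deposited log2 ratio, with 1 probe a gene, the set ran from *usp18* through *herc6*, *isg15*, *herc5* and *ube2l6* to *uba7*. The top of that order depended on the background correction and the offset of 50 added with it. With normexp and loess *isg15* (-2.01) and *herc6* (-2.0) were more negative than *usp18* probe 1 (-1.72). The difference between neighbors in this order was smaller than its SD between arrays for *usp18* and *herc6* (-0.31 ± 0.44), for *herc6* and *isg15* (-0.56 ± 0.93), for *herc5* and *ube2l6* (-0.21 ± 0.26) and for *ube2l6* and *uba7* (-0.40 ± 0.43; n = 4 in each). The log2 ratio of *isg15* was more negative than that of *herc5* probe 1 on all 4 arrays, with a mean difference of -0.53 ± 0.45 (SD, n = 4).

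The members shared an order of arrays. From most to least negative the arrays ran 3, 1, 2, 4 in 6 of the 7 member probes tested, and *uba7* ran 3, 4, 1, 2. Array 3 was the most negative for 7 of 7 member probes, against 671 of the 1505 probes called lower and 6239 of all 26832 probes tested. Array 4 was the least negative for 6 of 7 member probes, against 395 of 1505 and 7206 of 26832. The share of all probes with the full order was not counted. Array 3 also had the widest spread of ratios over all tested probes (SD 0.37, against 0.27 to 0.35 on the others). Its median ratio of raw GO signal to local background was the lowest, at 2.85 against 3.42 to 4.37. The part of these array differences in the order was not tested.

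The same order held in the control channel alone. Control signals were highest on array 3, then 1, 2 and 4, in 6 of 7 member probes, and *herc6* differed only in that array 4 (386) was slightly above array 2 (354). In 7 of 7 probes the array with the highest control signal also had the most negative ratio. The control signal is the denominator of the ratio, so these observations are not independent of each other.

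Ubiquitin passes through a cascade of the same kind, from an E1 to an E2 enzyme and on to a ligase, and is removed by proteases. Of 21 such genes listed, 17 had a probe tested and 0 were called by limma, with 4 at an unadjusted p under 0.05, against 8.67% of all 9501 genes by brightest probe (5.37% lower and 3.3% higher). The plain one-sample test and the fit without pairing also called 0, and both fits on normexp-corrected signals called 1, as higher. The median log2 ratio of the list was -0.06, beside 0.00 over all genes tested. The list was chosen with earlier results of these data known.

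*Rps27a*, a ubiquitin-ribosomal fusion gene picked after its values were seen, had an adjusted p of 0.032 and a log2 ratio of 0.27 ± 0.09 (SD, n = 4), under the fold threshold. The *ubb* symbol was not matched to a probe.

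For the E1 and E2 enzymes of ubiquitin, *uba1* had a log2 ratio of -0.16 ± 0.21 (adjusted p = 0.248 by limma), which turned to a log2 ratio of 0.16 with normexp and median centring, and *ube2l3*, the closest relative of *ube2l6*, had 0.08 ± 0.07 (adjusted p = 0.376 by limma, SD over 4 arrays). *Herc3* and *herc4*, small HERC ligases that act with ubiquitin, had log2 ratios of 0.01 ± 0.28 and -0.09 ± 0.10, with adjusted p of 0.940 and 0.358 by limma. *Herc3* changed sign to -0.02 and -0.05 with normexp and loess or median centring, and *herc4* turned to 0.01 with the latter. The *herc3* probe lies on chromosome 3 as well, 207 kb from that of *herc6*, and *herc3* was lower on array 4 alone, where *herc6* was least negative.

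**Figure D3:**
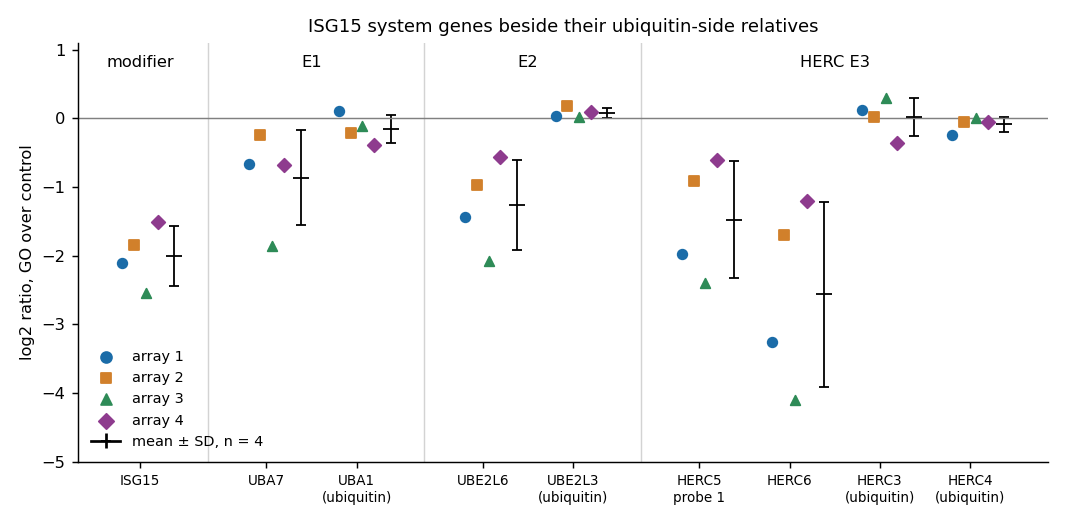
Log2 ratio of GO over control (vertical axis) of *isg15*, *uba7*, *ube2l6*, *herc5* probe 1 and *herc6* beside ubiquitin-side relatives, by role (*usp18* not drawn), on each of 4 arrays, with mean ± SD (n = 4). The relatives lie close to 0, from *uba1* at -0.16 to *ube2l3* at 0.08, and the means of the members drawn lie between -0.86 and -2.56.

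Among 38 other ubiquitin-like modifiers and their enzymes (the NEDD8, SUMO, UFM1, URM1 and ATG8 systems), also chosen with earlier results known, 29 were tested. Limma called 1 of them (3.4%), against 8.67% of all genes by brightest probe, and 8 had an unadjusted p under 0.05. *Gabarapl2*, an ATG8 family modifier of autophagosome membranes, was lower (log2 ratio -0.44 ± 0.23, n = 4, adjusted p = 0.025 by limma), on 2 of its 3 probes. That call was lost without array 2, 3 or 4, without the filter on dim probes, by the plain one-sample test, without pairing, and with normexp and median centring, where the log2 ratio was -0.19. The median of the list was 0.05.

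Genes that act upstream of ISG15 or beside it were lower in part. From a list of 40 interferon pathway and ISG15-linked genes, 29 were tested, and limma called 10 (34.5%), all lower, against 5.37% of all genes called lower. This list too was chosen with earlier results of these data known, so its share called is no test of the pathway. The median log2 ratio of the list was -0.11, and 21 of its 29 genes were below 0. Without array 1 the count was 6, with normexp and median centring 2, without pairing 1, and by the plain one-sample test 0.

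The interferon ligands gave no ratio that could be tested, since the probes of *ifna1*, *ifnb1*, *ifng* and *ifnk* were not above background on all arrays of either channel. The receptor subunits *ifnar1* and *ifnar2* had log2 ratios of 0.07 ± 0.13 and 0.04 ± 0.08, and the kinase *jak1* had 0.11 ± 0.08 (SD, n = 4), with adjusted p of 0.496, 0.697 and 0.231 by limma. None of these was called.

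Among the transcription factors that interferon signals through, *irf7* gave control signals of 3130, 1901, 7128 and 1126 against GO signals of 636, 444, 932 and 289. It fell by 2.32 ± 0.43 on the log2 scale (SD, n = 4; adjusted p = 0.001 by limma). *Irf9*, the DNA-binding subunit of the ISGF3 complex, fell by 1.24 ± 0.47 on the log2 scale (adjusted p = 0.007 by limma). *Stat2*, also part of that complex, had a log2 ratio of -0.07 ± 0.27 (adjusted p = 0.654 by limma), and *irf1* had -0.10 ± 0.24 (adjusted p = 0.501 by limma).

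Antiviral effectors on the list were lower as well. *Mx1*, a dynamin-like GTPase that is also modified by ISG15, had a log2 ratio of -3.07 ± 0.70, *ifih1* of -3.25 ± 1.16, *ifit3* of -3.01 ± 0.94, *mx2* of -1.19 ± 0.76, *eif2ak2* of -1.07 ± 0.83 and *ddx58*, which encodes the ISG15 target RIG-I, of -1.0 ± 0.67 (SD, n = 4, with adjusted p of 0.002, 0.006, 0.004, 0.029, 0.046 and 0.032 in that order by limma). The GO signals of *ifih1* and *ifit3* were well above background on 1 array each, and those of *mx2* on 3. These genes thus passed the filter through their control signals alone. With normexp and loess the log2 ratios were -1.35 for *ifih1*, -1.06 for *ifit3* and -0.42 for *mx2*, whose call was lost (adjusted p = 0.131 by limma). The calls of *mx2*, *eif2ak2* and *ddx58* were lost without array 1 (adjusted p = 0.087, 0.132 and 0.096 by limma), without array 2 (0.070, 0.078 and 0.064) and without array 3 (0.052, 0.107 and 0.059), and that of *eif2ak2* also with normexp and loess (0.056) and with array weights (0.054). The order of arrays 3, 1, 2, 4 recurred in 7 of the 10 genes called, and *ifit3* and *usp13* were among the exceptions. How often all probes show that order was not counted.

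Among enzymes also reported to attach or remove ISG15, *usp13* was the 1 called, with a log2 ratio of -0.58 ± 0.14 (n = 4, adjusted p = 0.006 by limma). The ligases *trim25* and *arih1* had -0.04 ± 0.16 and 0.02 ± 0.15, and the proteases *usp2*, *usp14* and *usp5* had -0.35 ± 0.27, -0.01 ± 0.08 and 0.00 ± 0.36 (SD, n = 4 arrays). *Usp16* had 0.24 ± 0.09, with an adjusted p of 0.042 by limma and a fold change under 1.3.

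**Figure D4:**
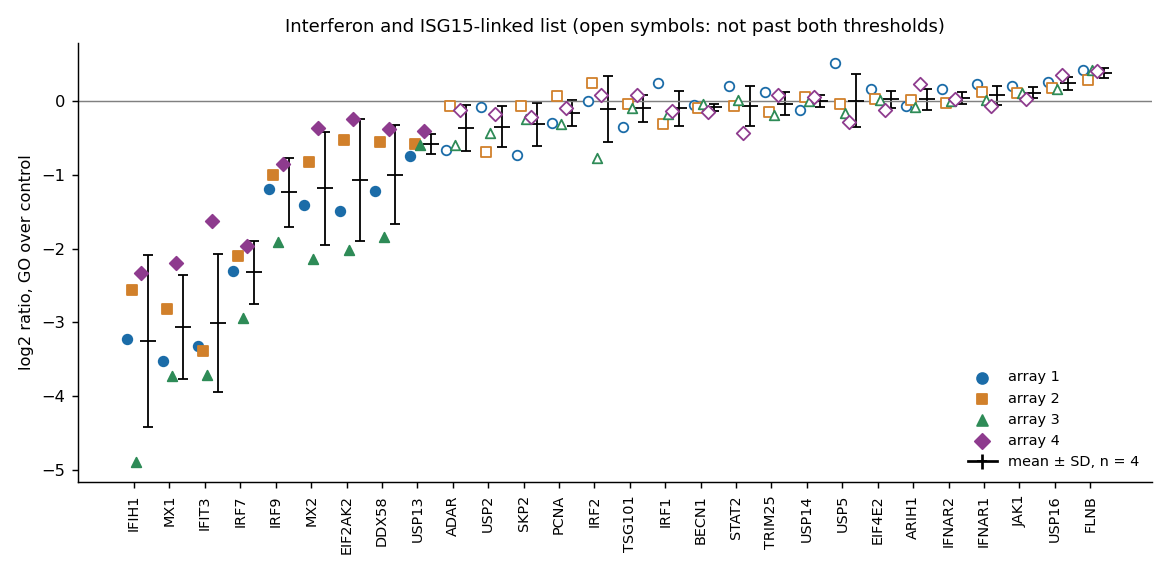
Log2 ratio of GO over control (vertical axis) for 28 tested genes of the interferon and ISG15-linked list, ordered by mean, on each of 4 arrays with mean ± SD (n = 4). Filled symbols are the 9 genes drawn that were past both thresholds, all below 0, and open symbols are the others, of which *flnb* at 0.38 is the highest.

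The 5 genes whose log2 ratios on the 4 arrays were nearest to those of *isg15*, by root mean square difference over 9495 genes, were *xaf1* (difference 0.20, mean log2 ratio -1.99), *parp15* (0.29, -1.79), *cd74* (0.29, -2.23), *trim69* (0.33, -1.79) and *irf7* (0.34, -2.32). *Xaf1* encodes an antagonist of the apoptosis inhibitor XIAP, and *cd74* the invariant chain of MHC class II. Since they were picked by their likeness over the same 4 arrays, no test applies. No GO signal of *trim69* was well above background, so the size of its ratio is uncertain. The GO signals of *xaf1*, *parp15* and *cd74* were well above background on 3 of 4 arrays each, and those of *irf7* on all 4.

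Markers of cell type differed between the channels in part. All 10 myogenic markers with a probe (*des*, *myod1* and *myog* among them) were well above background. Of the 10, 7 were called, all lower, while over all genes 5.37% were called lower and 3.3% higher. The summed signal of the 10 was 163520 to 221842 in control and 97934 to 135562 in GO channels. For leukocytes, which carry many interferon-induced transcripts, the summed markers were 5527 to 6533 in control and 5990 to 6845 in GO channels. *Cd14* alone made up 4164 to 4946 and 4377 to 5231 of these sums, and *cd68*, at -0.28 ± 0.18 (log2 ratio, n = 4, adjusted p = 0.060 by limma), was lower on all 4 arrays. Of the leukocyte markers, 5 of 15 had control signals well above background on all 4 arrays and 6 (*cd2*, *cd3e*, *cd4*, *cd79a*, *itgam* and *lyz*) no such signal on any. Summed fibroblast markers, 7 of 8 of them well above background, ranged from 282045 to 446768 and from 292870 to 404770, and consisted mostly of *col1a2*, *col3a1* and *dcn*. Of the 7, only *pdgfra* was called by its brightest probe, as higher (log2 ratio 0.87 ± 0.48, n = 4, adjusted p = 0.020 by limma). Its signals were dim, from 21.8 to 46.4 in control and from 42.7 to 69.5 in GO channels. Of all probes tested, 2 of 9 for *col1a2* and 1 of 2 for *dcn* were called, though not the brightest. *Fap* was higher on all 4 arrays at 0.24 ± 0.07, under the fold threshold. The 6 endothelial markers were at background throughout. The part of cell makeup in the ratios of the ISG15 system was not tested.

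Leaving out 1 array moved the member means without turning any of them. The mean log2 ratio lay between -2.16 and -1.82 for *isg15*, between -3.02 and -2.05 for *herc6*, between -3.17 and -2.54 for *usp18* probe 1 and between -3.34 and -2.61 for *usp18* probe 2. It lay between -1.76 and -1.17 for *herc5* probe 1, between -1.50 and -0.99 for *ube2l6* and between -1.07 and -0.53 for *uba7*. The value nearest to 0 came without array 3 for each of the 7.

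Several members gave raw GO signals only a few times the local background. The raw mean GO signal of *usp18* probe 1 was 185, 117, 150 and 149 on arrays 1 to 4, beside local backgrounds of 50, 47, 49.5 and 46. That of *ube2l6* was 189, 146, 119 and 183, and that of *uba7* 116, 86.2, 72.8 and 99.7. The *isg15* probe gave raw GO signals of 16406, 6053, 19230 and 7114 beside local backgrounds of 49 to 51.5.

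The size of the ratios depended on the background correction. Normexp correction here also added an offset of 50 to both channels, which by arithmetic draws the ratios of dim probes toward 0. The parts of the correction and of the offset were not separated. With normexp and loess the mean log2 ratio was -2.01 for *isg15*, -2.0 for *herc6*, -1.72 and -1.80 for *usp18* probes 1 and 2, -0.77 for *herc5* probe 1, -0.68 for *ube2l6* and -0.22 for *uba7*. The value of *isg15* was thus nearly the same as from the deposited ratios, and those of the other 6 probes lay closer to 0. With normexp and median centring *isg15* was at -1.68 and *herc6* at -1.95. Direction was the same in all 7 probes under both.

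**Figure D5:**
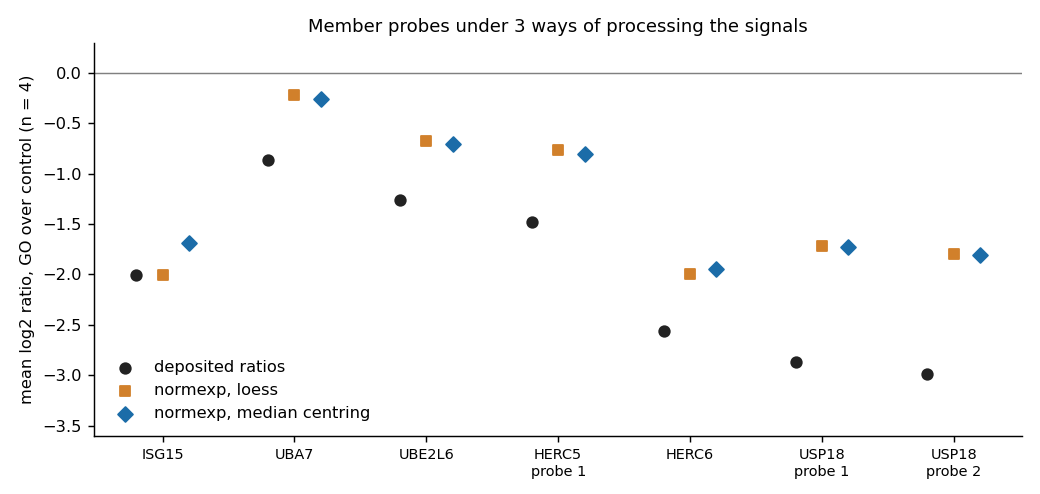
Mean log2 ratio of GO over control (vertical axis, n = 4) of the 7 member probes tested, from the deposited ratios and after normexp background correction with loess or with median centring. All points lie below 0, and *usp18* probe 1 moves from -2.87 to -1.72 with both corrections.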

How the data were processed

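Deposited files of 4 arrays were used. The authors scanned them and ran Feature Extraction (10.10.1.1 per the file headers), which wrote intensity signals of both channels after background subtraction, detrending and dye normalization, and log10 ratios of Cy5 over Cy3. The authors' deposited table of the series held the same log10 ratios (180880 of 180880 values equal). Ratios were put on the log2 scale, 1417 control spots and outlier spots were left out, and spots of 1 probe were averaged. Of 43603 probes, 26832 were tested, those well above background in 1 channel on all 4 arrays. The 4 ratios of a probe were tested against 0, two-sided, with limma (3.58.1, R 4.3.3) and Benjamini-Hochberg adjustment, and called within the study's limits (adjusted p up to 0.05, fold change from 1.3). The methods name no test.

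A gene took its brightest probe. Symbols came from the files for 24960 probes, and for 1684 by gene number and 433 by accession through RefSeq gene names of assembly TB-T2T. The members and lists were chosen with earlier results of these data known. Named are all members, list genes past both thresholds, *ubb*, *uba1*, *ube2l3*, *herc3* and *herc4*, and the 5 genes most like *isg15*. The remaining genes named were picked after their values were seen. Results of 3 genes of these lists are counted but not reported here.

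The array pairs its channels: channel deviations correlated at 0.60, 0.86, 0.73 and 0.48 within arrays and at -0.54 to 0.24 between arrays, and channels of 1 array also share spots. P-values of limma weigh the spread between these 4 arrays, drawn toward a spread shared by all tested probes (prior SD 0.144, 3.6 degrees of freedom). The number of arrays limits the precision. The scripts were tested on simulated data. Alternatives were normexp correction (offset 50) with loess or median centring, median-centred ratios, other filters, array weights, a plain one-sample test, channels as separate samples, the median over probes, the deposited table, and leaving out each array.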

Additional observations from a re-analysis of the deposited data

Results flagged for a closer look

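Of 41 sets of 4 values examined, 1 had a sample far from the others: in the log2 GO signal of *herc5* probe 1, array 3 (a signal of 92.4, beside 61.6 to 63.0 on the others) lay apart by 0.943 of the whole range. The 5% level belongs to the limit used for flagging, which chance passes in about 5% of sets. The gap seen lay beyond that limit, and how often chance gives a gap of its size was not computed.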

How the results depend on the processing

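Calls are limma's at both thresholds unless stated. Over all probes 2399 were called, and 1297 with normexp and loess, 368 with normexp and median centring (21 lower, 347 higher), 908 without the filter on dim probes, 147 by the plain one-sample test, 370 with no replicate block (channels as separate samples) and 1566 to 2430 without 1 array, the lowest without array 2. Member genes called numbered 5, and 1 with median centring, 1 without the filter, 0 by the plain test, 0 with no replicate block and 2 to 5 without 1 array, 2 without array 1. For the pathway list the count of 10 became 2, 3, 0 and 1 under the same settings in that order, and 6 to 10 without 1 array, 6 without array 1. The ubiquitin list had 0, and 1 with both normexp fits. The other ubiquitin-like list had 1, and 0 without the filter, by the plain test and with no replicate block, 2 by the median over probes, 1 with normexp and median centring but as higher, and 0 to 1 without 1 array. Signs turned for *herc3* (-0.025 with normexp and loess, -0.054 with median centring, and -0.077 to 0.14 without 1 array), and with median centring for *herc4* (0.012) and *uba1* (0.16). The 7 tested member probes kept a negative mean under every alternative that gave them a value. *Uba7* had no value where both channels had to be above background on all 4 arrays. The causes were not tested. Dim probes limit the values: *uba7* and *herc5* probes 2 and 3 were near background in the GO channel.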
